A study of Mus musculus with 8 samples.

Results

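The most deeply read regions of the mouse genome in this bisulfite data set were the 300 autosomal tiles of 1000 bp with the most reads per covered CpG position, out of 43285 autosomal tiles with 3 or more covered positions and 20 or more reads in each library. They were chosen by their depth, the methylated and unmethylated reads summed over all 8 libraries, so that depth is a description and not a finding. DNA methylation was read by reduced representation bisulfite sequencing (RRBS) in I1DN leukaemic progenitors gated as cKit+ and Cd11b-, taken from mice transplanted with these cells and treated for 5 days. There were 4 groups of 2 libraries each: AG120 plus AZA (written AG120+AZA), AG120, AZA and Vehicle. AG120 is ivosidenib, an inhibitor of mutant IDH1, and AZA is azacitidine, a DNA methyltransferase inhibitor. The labels do not give the alleles behind the name I1DN, the age or number of mice, or whether the 2 libraries of a group came from separate mice, so the spread between them may be technical. The gate could not be checked, since genomic DNA carries no expression of Kit or of Itgam, the gene of Cd11b. The series asks how the drugs, alone and combined, affect DNA methylation.

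RRBS cuts genomic DNA at CCGG, so reads pile up at fixed fragment ends near CpGs, and a sequence present in many copies but assembled in few gathers the reads of all of them. The genes of the large ribosomal RNA precursor are a known case: they lie in long tandem arrays, only part of the copies is active, and silent copies are known to carry methylated CpGs. Satellite repeats of the centromeric heterochromatin are another, and they are known to be methylated in most somatic cells. The enzymes that copy CpG methylation after DNA replication are the targets of AZA, and the product of mutant IDH1 is known to inhibit TET enzymes, which oxidise methylated cytosine.

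Calls per library ranged from 90373925 to 130796962. The libraries with AG120 held fewer calls than those without it, and a higher share of their calls was methylated. That share was 50.5% and 48.0% with AG120+AZA, 41.5% and 49.9% with AG120, 39.2% and 36.9% with AZA, and 34.1% and 32.6% with Vehicle. The part of this difference in the results below was not tested, so levels are given per tile or per position, each counted once, unless reads are said to be pooled. Replicate error is given as the SD over libraries. Reads made by PCR are not independent molecules, so intervals on shares of reads cover counting error only.

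The sequences that the gene reference held for these tiles were few. Only 9 of the 300 tiles (3.0%) overlapped a RefSeq promoter window of 300 bp around a gene start, against 23.7% of all autosomal tiles, and those 9 tiles held 12 windows. In the windows below, chosen because they held reads and show different kinds of deeply read promoter, capitals mark CpGs with at least 1 covered cytosine. All were read 5′ to 3′ on the plus strand from RefSeq on GRCm38.p6, whose coordinates are those of mm10. They lie at chr13:119488223-119488522 (Tmem267, a transmembrane protein gene), chr6:3182866-3183165 (LOC115490388), chr17:21650361-21650660 (Zfp983, a zinc finger gene), chr17:21679627-21679926 (Gm10509) and chr2:55435720-55436019 (Kcnj3, an inwardly rectifying potassium channel gene).
Tmem267: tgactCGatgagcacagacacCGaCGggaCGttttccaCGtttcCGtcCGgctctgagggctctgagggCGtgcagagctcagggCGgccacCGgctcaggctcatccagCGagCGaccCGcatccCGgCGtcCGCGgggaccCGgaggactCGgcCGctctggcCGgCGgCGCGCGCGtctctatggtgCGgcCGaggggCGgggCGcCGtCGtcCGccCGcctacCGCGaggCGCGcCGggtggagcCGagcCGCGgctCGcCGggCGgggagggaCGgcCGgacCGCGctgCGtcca
LOC115490388: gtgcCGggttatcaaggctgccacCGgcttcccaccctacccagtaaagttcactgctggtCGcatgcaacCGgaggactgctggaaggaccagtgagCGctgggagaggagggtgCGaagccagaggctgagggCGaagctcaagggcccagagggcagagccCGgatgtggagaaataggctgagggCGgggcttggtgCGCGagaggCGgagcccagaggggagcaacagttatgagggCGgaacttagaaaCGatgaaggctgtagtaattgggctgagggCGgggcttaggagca
Zfp983: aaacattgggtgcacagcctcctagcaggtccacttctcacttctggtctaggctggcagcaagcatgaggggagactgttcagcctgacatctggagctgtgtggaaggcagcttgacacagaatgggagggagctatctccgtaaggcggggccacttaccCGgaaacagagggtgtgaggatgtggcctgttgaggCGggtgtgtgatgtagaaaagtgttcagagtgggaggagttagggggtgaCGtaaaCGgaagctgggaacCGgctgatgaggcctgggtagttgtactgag
Gm10509: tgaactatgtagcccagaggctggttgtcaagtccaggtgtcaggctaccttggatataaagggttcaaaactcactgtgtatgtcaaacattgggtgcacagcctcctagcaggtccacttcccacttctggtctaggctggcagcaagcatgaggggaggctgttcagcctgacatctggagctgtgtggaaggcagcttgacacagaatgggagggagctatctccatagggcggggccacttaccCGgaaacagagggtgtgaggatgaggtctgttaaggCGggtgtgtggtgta
Kcnj3: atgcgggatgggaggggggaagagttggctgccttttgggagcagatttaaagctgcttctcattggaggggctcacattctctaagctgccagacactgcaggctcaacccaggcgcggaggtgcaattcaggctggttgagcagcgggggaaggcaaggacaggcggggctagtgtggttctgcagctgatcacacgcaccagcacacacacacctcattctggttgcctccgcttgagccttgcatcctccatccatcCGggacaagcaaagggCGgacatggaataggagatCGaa

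The Tmem267 window held 50 CpGs, all of them covered, and it was methylated in every library. Its level was 88.7% and 93.4% with AG120+AZA, 80.7% and 91.7% with AG120, 85.3% and 90.1% with AZA, and 86.3% and 73.1% with Vehicle. The groups overlapped, apart from both AG120+AZA libraries lying above both Vehicle libraries. Among 944 RefSeq promoter windows with at least 40 CpGs and 20 reads in every library, the median level was 1.28% and only 23 (2.44%) lay over 50%. Of its 31-base words, 58.5% also occurred in the window of 3110070M22Rik, which overlaps it on the other strand. A second Tmem267 window, at chr13:119487836-119488135, had a level of 0% in the 4 libraries with reads there: AG120+AZA replicate 2, both AZA libraries and Vehicle replicate 1.

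The Zfp983 and Gm10509 windows were near copies of each other, with 206 identical bases in 214 aligned columns (96.3%). Gm10509 was at 0.155% and 0% with AG120+AZA and at 0% in the other 6 libraries. Zfp983 was at 0% and 9.86% with AG120+AZA, 0% and 0% with AG120, 6.54% and 14.9% with AZA, and 0.0221% and 0.0549% with Vehicle. Both were therefore close to unmethylated in all Vehicle and AG120 libraries, and the uneven values of Zfp983 lay in 1 AG120+AZA and both AZA libraries. Reads that match both copies could have been placed at either, and the first AG120+AZA library had only 20 reads in the Zfp983 window. CCGG itself stood in 7 of the 12 windows, and in 53.5% of all 31396 RefSeq windows. The window in LOC115490388 (15 CpGs, all covered) ranged from 53.1% to 72.8% over the libraries.

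**Figure D1:**
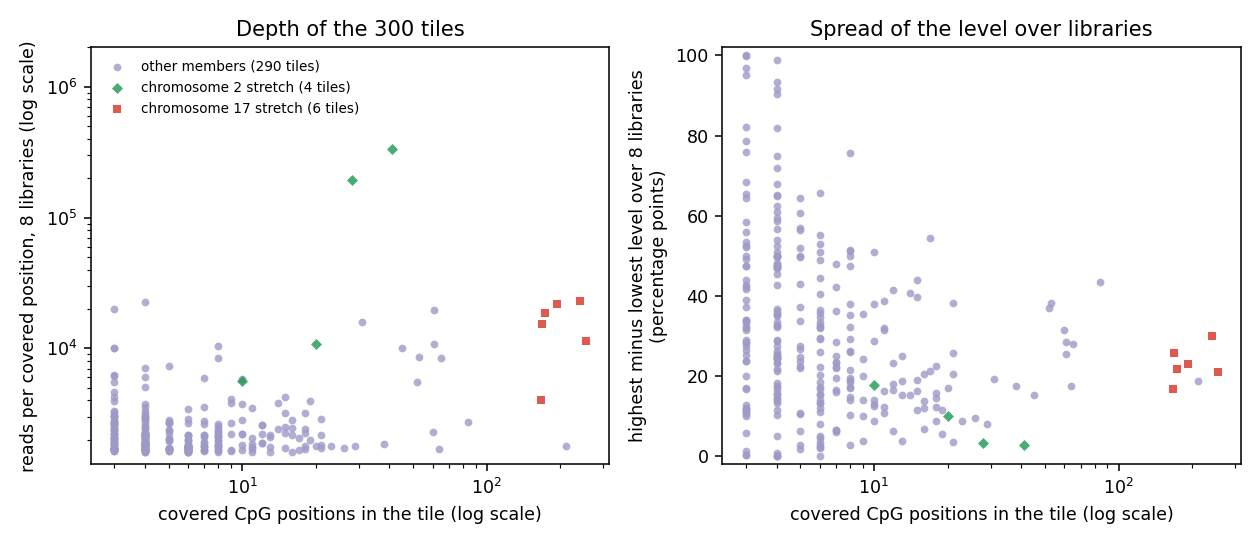
Each point is 1 of the 300 tiles, placed by its number of covered CpG positions (log scale), with reads per covered position summed over 8 libraries on the left (log scale) and the highest minus the lowest methylation level over the 8 libraries, in percentage points, on the right. The 2 deepest tiles of the chromosome 2 stretch lie highest in depth, the 6 tiles of the chromosome 17 stretch hold many positions, and ranges over 50 points occur only in tiles with fewer than 20 positions.

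The 300 tiles were mostly small clumps of CpGs and not dense regions. Their median depth was 2047.5 reads per covered position, against 323 over all 43285 autosomal tiles. They held a median of 6 covered positions, against 25. Of the 300, 228 (76.0%) had 3 to 9 positions, against 21.4% of all tiles, and 29 (9.67%) had at least 20, against 57.3%. A RefSeq gene overlapped 149 tiles (49.7%), against 76.1%. In the 271 tiles with fewer than 20 positions a median of 33.5% of reads fell on the single deepest position, and in the 29 others 9.22%. The choice itself favours few positions, since depth was divided by their number. At the edge of the list, the last 3 tiles inside had 1614, 1614 and 1610.2 reads per position (in Crim1, in Zfp936 and outside genes) and the first 3 outside had 1606, 1605 and 1601 (in Pax6os1, outside genes and in Efr3b), so the list has no natural end.

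Most of the tiles stood alone. They formed 290 separate runs, of which 285 were single tiles, 3 were pairs, 1 was a run of 3 and 1 a run of 6. The pairs were in Tmem267 on chromosome 13, in Gm39743 on chromosome 1, and at chr13:66733001-66735000. Members lay on all 19 autosomes. Of the gene lists for repeats, 89 symbols for ribosomal and small RNAs matched the gene table, with 3 tiles that passed the depth filter and 0 members. That list did not hold Rn18s-rs5, which overlaps 3 members. Among 425 symbols of segmental duplications and tandem gene families, 45 tiles passed and 1 was a member, in Sfi1, a centrin-binding protein gene. The list of 23 imprinted genes had 44 tiles and 0 members. Of satellite-associated predicted genes 0 symbols matched. No repeat annotation or genome sequence was used here, so whether the tiles are collapsed repeats was tested by neither, and the description rests on depth, position and gene overlap.

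The 300 tiles together took 5.81% and 6.15% of all calls with AG120+AZA, 5.32% and 5.38% with AG120, 5.42% and 5.02% with AZA, and 5.20% and 4.44% with Vehicle. Exact binomial 95% intervals were narrower than the last printed digit, for example 5.80% to 5.81% for the first AG120+AZA library. Both AG120+AZA libraries lay above all others. Because the same reads chose the tiles, these shares are a description. Of 300 tiles 10 took most of these calls: 6 consecutive tiles on chromosome 17 and 4 on chromosome 2. The other 290 took between 0.975% and 1.13% of calls in every library, with group means of 1.05% with AG120+AZA, 1.07% with AG120, 1.05% with AZA and 1.05% with Vehicle.

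**Figure D2:**
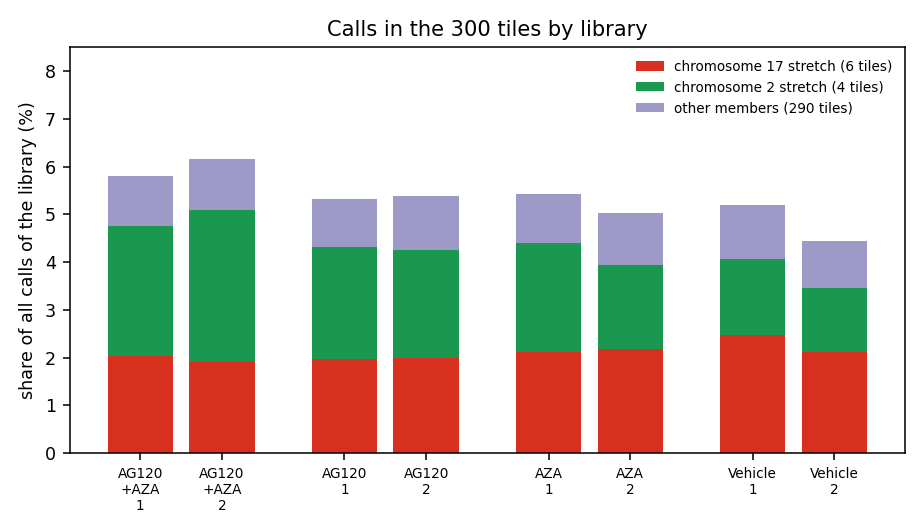
Stacked bars give the share of all methylation calls of each library, in percent, that fell in the chromosome 17 stretch, the chromosome 2 stretch and the other 290 tiles. The chromosome 2 part ranges from 1.35% in a Vehicle library to 3.20% in an AG120+AZA library, while the other 290 tiles stay near 1% in every library.

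The stretch on chromosome 2 held the deepest sequence of the table. It consisted of the tiles chr2:98662001-98663000, chr2:98665001-98666000, chr2:98666001-98667000 and chr2:98667001-98668000, with no RefSeq gene in any of them. As background, this part of mm10 is known for gathering reads of satellite repeats in many sequencing assays. Its share of calls was 2.72% and 3.20% with AG120+AZA, 2.36% and 2.26% with AG120, 2.29% and 1.76% with AZA, and 1.61% and 1.35% with Vehicle. All 6 libraries of treated mice lay above both Vehicle libraries. The libraries also differ in the calls that form the denominator, and the part of that in the share was not tested.

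The deepest tile, chr2:98666001-98667000, had 331521 reads per covered position at 41 positions, and its methylation level hardly differed between libraries. It was 62.1% and 62.6% with AG120+AZA, 62.5% and 64.8% with AG120, 62.9% and 62.0% with AZA, and 63.1% and 64.8% with Vehicle. The group means were 62.4% ± 0.324 with AG120+AZA, 63.6% ± 1.63 with AG120, 62.5% ± 0.682 with AZA and 64.0% ± 1.18 with Vehicle (SD, n = 2 each). The second tile, chr2:98662001-98663000, with 193084 reads per position at 28 positions, gave 61.4% ± 0.586, 63.2% ± 1.75, 62.3% ± 0.453 and 62.9% ± 0.468 (SD, n = 2 each) for AG120+AZA, AG120, AZA and Vehicle. Between the groups the levels thus lay within 2 points of each other in both tiles, while the share of calls differed. These tiles and a 4-position tile on chromosome 19 were the 3 with the narrowest range among members at a mean level of 20% to 80%.

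The level of the deepest tile was a mixture of positions at opposite ends of the scale. In it, 3 positions held 30.9% of the reads each. Position 98666385 had a pooled level of 2.37%, position 98666394, 9 bases on, 87.4%, and position 98666504 92.9%. The first was between 2.09% and 2.88% in all libraries and the third between 90.5% and 95.5%. The second tile held the same contrast over the same 9-base step. Its position 98662557 was at 2.62% and position 98662566 at 87.3%, and a second such step led from 55.8% at position 98662677 to 88.0% at position 98662686. Position 98662602 was at 11.3% and position 98662795 at 93.5%. No genome sequence was used here to check these positions for CpGs. The edgeR quasi-likelihood test found no difference in either tile, with an adjusted p of 1 in each contrast, and the average effect of AG120 on the deepest one was -0.01 in log2 odds.

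**Figure D3:**
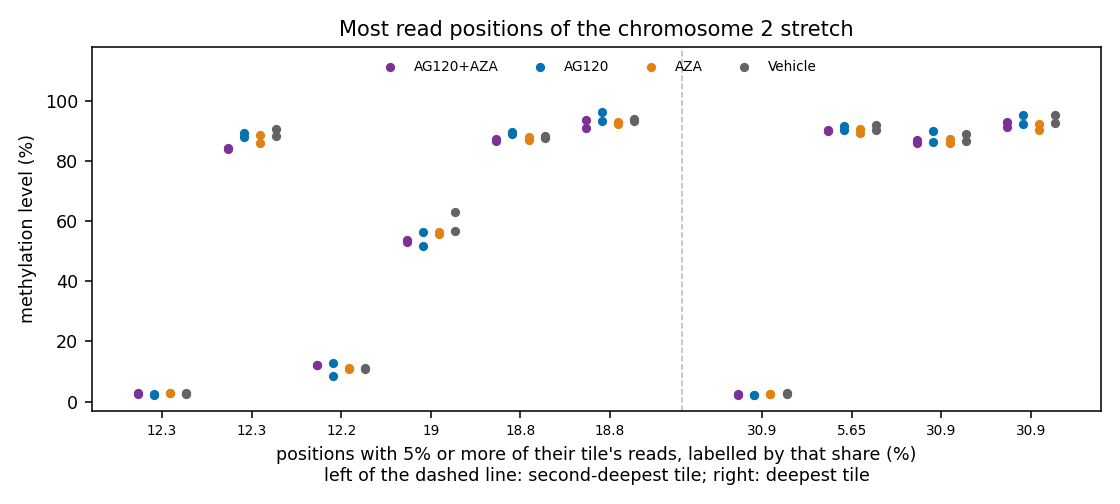
Methylation level in percent of the positions that held 5% or more of the reads of the 2 deepest tiles, with 1 point per library coloured by group (AG120+AZA, AG120, AZA and Vehicle from left to right) and the share of the tile's reads under each. Positions lie near 2%, near 11%, between 52.0% and 63.1%, or at 84.0% and above, and within a position the 8 libraries stay close together.

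The run of 6 tiles at chr17:39843001-39849000 differed in both respects: its share of calls was more even and its level less so. As background, this stretch of mm10 is a copy of the large ribosomal RNA precursor gene. RefSeq lists Rn18s-rs5, a pseudogene copy of the small-subunit ribosomal RNA, at 39846354 to 39848202, and the noncoding gene AY036118 at its far end. The run held 1196 covered positions and 19097720 reads. It took 2.04% and 1.90% of calls with AG120+AZA, 1.96% and 1.99% with AG120, 2.12% and 2.17% with AZA, and 2.46% and 2.11% with Vehicle, so that the 4 libraries with AG120 lay below the 4 without it by a small margin.

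Methylation of the ribosomal stretch was higher in the libraries with AG120. The mean of its 6 tile levels was 46.5% and 44.7% with AG120+AZA, 38.7% and 51.3% with AG120, 35.1% and 34.5% with AZA, and 28.9% and 31.8% with Vehicle. All 4 libraries with AG120 lay above all 4 without it, at 45.3% ± 5.18 with AG120 and 32.6% ± 2.85 without (SD, n = 4 each), a difference of 12.7 points. The AG120 libraries themselves, at 38.7% and 51.3%, were as far apart as this difference. AZA did not separate the libraries when those with and without AG120 were joined, at 40.2% ± 6.29 with it and 37.7% ± 9.97 without (SD, n = 4 each). Without AG120, both AZA libraries lay above both Vehicle libraries. Over all autosomal tiles, each counted once, the mean was 48.2% with AG120 and 47.5% without.

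Tile by tile, 5 of the 6 had the libraries with and without AG120 apart. In chr17:39845001-39846000, the third deepest of all tiles, the level was 57.8% and 48.7% with AG120+AZA, 43.5% and 60.1% with AG120, 38.8% and 38.0% with AZA, and 30.0% and 33.9% with Vehicle. The lowest library with AG120 stood at 43.5% and the highest without it at 38.8%. In chr17:39844001-39845000 it was 51.3% and 44.3% with AG120+AZA, 47.9% and 52.3% with AG120, 35.1% and 34.4% with AZA, and 31.9% and 31.2% with Vehicle. The exception was chr17:39847001-39848000, which lies wholly inside Rn18s-rs5, at 31.3% and 44.4% with AG120+AZA, 29.9% and 45.7% with AG120, 33.4% and 32.3% with AZA, and 29.0% and 33.2% with Vehicle. There the libraries with and without AG120 overlapped, with 2 of the 4 libraries with AG120 above all those without it.

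**Figure D4:**
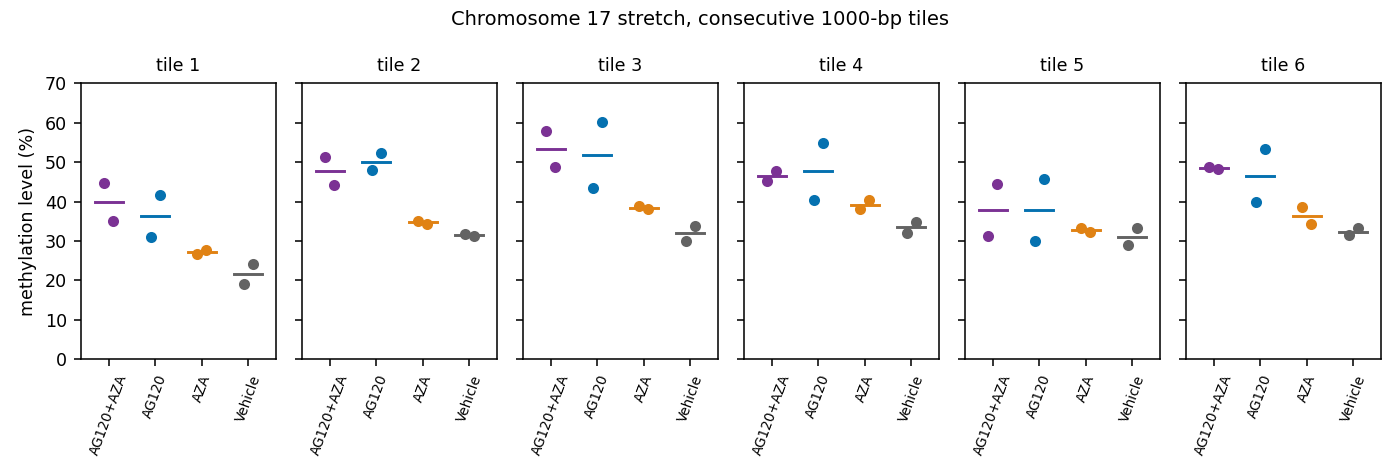
Methylation level in percent of the 6 consecutive 1000-bp tiles of the chromosome 17 stretch, with 1 point per library and a line at the mean of the 2 libraries of each group. In tiles 1, 2, 3, 4 and 6 every library with AG120 lies above every library without it, and in tile 5 they overlap.

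None of these tiles passed the test across the genome. For the average effect of AG120, edgeR's quasi-likelihood test gave a log2 odds ratio of 1.03 for chr17:39845001-39846000 (adjusted p = 1) and 0.95 for chr17:39844001-39845000 (adjusted p = 1). Of 300 members 299 could be tested, since chr7:16388001-16389000 had no methylated read. Of these, 15 had an unadjusted p under 0.05 for this effect, against 3.4% of all 44190 tiles. At an adjusted p under 0.05 there were 0 members and 0% of all tiles. For the average effect of AZA 15 members had an unadjusted p under 0.05, against 2.65% of all tiles, and 0 members and 0% of all tiles were called. With other tools the average effect of AG120 called 1 member by edgeR's likelihood ratio test (all tiles 0.928%), 0 by limma and 19 by DESeq2 (all tiles 3.77%), which called all these ribosomal tiles except chr17:39847001-39848000. By DESeq2 the adjusted p of chr17:39845001-39846000 was 0.000151. For the average effect of AZA the likelihood ratio test called 4 members (all tiles 0.493%) and DESeq2 11 (2.67%).

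Single positions showed where along the ribosomal stretch the difference lay. Of 768 positions that had 10 or more reads in each library, 151 (19.7%) had all 4 libraries with AG120 above the other 4 and 0 had them below. Among 33679 such autosomal positions 345 (1.02%) were apart upward and 97 (0.288%) downward. Of those 345, 235 lay in members, 151 of them in the stretch itself, and of the 97 downward 5 lay in members. The autosomal share is therefore not a background separate from the stretch. Depth differed too, with a median per library of 1891 to 2797 reads per position in the stretch and 141 to 173 in the autosomes. Among positions at 20% to 80% it was 2067 to 3092 and 166 to 216. The part of depth in these shares was not tested. Positions at a mean level of 20% to 80% can move either way. Among them the upward shares were 21.3% in the stretch and 5.32% in the autosomes, and the downward shares 0% and 1.01%. The 304 autosomal positions apart upward here include 148 of the stretch. Neighbouring positions share reads, so these are not independent. In the 532 positions before Rn18s-rs5 the mean level was 44.8% with AG120 and 32.3% without, and 129 positions were apart upward. In the 114 positions after it the means were 42.3% and 32.1%, with 20 apart. Inside Rn18s-rs5 the 122 positions averaged 30.7% with AG120 and 29.8% without, and 2 were apart. These close means joined positions that differed both ways, with 68 of the 122 higher with AG120. At 4872 bp from the start of the stretch the means were 49.1% with AG120 and 26.8% without. At 3680 bp they were 22.2% and 40.9%. Cytosines of the 2 strands of a CpG, paired at 386 sites, differed by a median of 7.80 points. Some neighbouring positions differed far more, so the rise was not uniform outside Rn18s-rs5. In each pair of adjacent positions from 927 to 1122 bp, the first was higher with AG120 and the second lower. At 979 bp the means were 51.0% with AG120 and 23.9% without, and at 980 bp 14.5% and 42.4%. At 1049 bp from the start the mean was 54.5% with AG120 and 22.8% without, and at 1050 bp 22.4% and 60.9%. At 5101 bp the means were 51.7% and 39.4%, and at 5102 bp 2.78% and 0.633%.

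**Figure D5:**
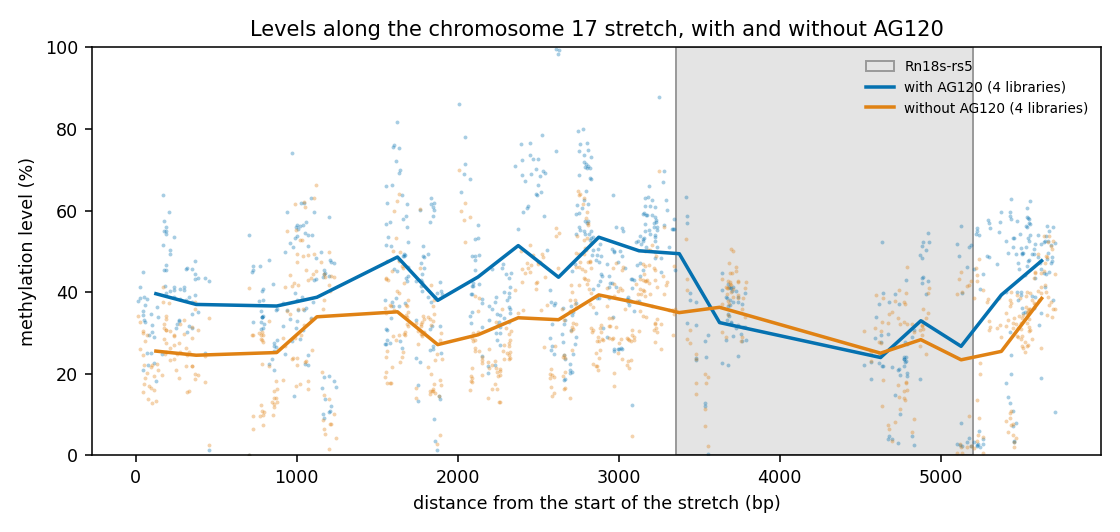
Methylation level in percent against distance in bp from the start of the chromosome 17 stretch, with points for single positions (mean of the 4 libraries with and of the 4 without AG120) and lines for the means of 250-bp windows with at least 20 positions. The lines run apart over most of the stretch before and after the shaded Rn18s-rs5, by up to 17.7 points. Before it, the difference narrows to 4.79 points in the window that starts at 1001 bp. Inside it the lines lie closer and cross, with differences from -3.75 to 4.63 points.

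The same direction was seen in other members with many positions. Of the 29 members with at least 20 positions, the libraries with AG120 were all above those without in 10 (34.5%) and all below in 0. Over the 24788 autosomal tiles with at least 20 positions these shares were 1.32% and 2.69%. Those tiles were shallower, with a median of 1657 reads per tile and library against 40496 in the 29. Of them 62.9% had a mean level under 20%, against 10.3% of the 29. The part of depth in these shares was not tested. Of the 16 members among the 29 with a mean level of 20% to 80%, 10 were apart upward, against 3.43% of 3960 such tiles, and 0 downward, against 1.09%. Of the 10, 5 were the ribosomal tiles. The split at 20 positions was chosen with these values known, and the tiles are not independent of each other if they share copies. Over all 300 members, 14 were apart upward and 3 downward, against 1.39% and 2.06% of all autosomal tiles. AZA separated the libraries upward in 3 members and downward in 8, against 0.802% and 1.51% of all autosomal tiles. In the 29 it separated 0 upward, against 0.766% of such tiles, and 0 downward, against 1.71%. In the 16 at 20% to 80% it likewise separated 0 either way, against 0.859% upward and 1.24% downward. These AZA counts join libraries with and without AG120. AZA alone lay above Vehicle in 9 of the 29 and below it in 5, against 12.7% and 19.8% of such tiles. AG120 alone lay above Vehicle in 14 and below it in 4, against 12.6% and 19.8%.

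The 5 tiles outside the ribosomal stretch lay on 5 chromosomes. The tile chr11:109011001-109012000, in the predicted gene Gm36876 and among the 10 deepest, had 46.4% and 55.9% with AG120+AZA, 48.9% and 57.7% with AG120, 42.8% and 34.7% with AZA, and 32.2% and 40.4% with Vehicle. The tile chr2:20900001-20901000, in Arhgap21, had 46.3% and 50.2% with AG120+AZA, 43.2% and 43.6% with AG120, 39.3% and 34.9% with AZA, and 31.8% and 30.9% with Vehicle. In both, the lowest library with AG120 was close to the highest without it. The other 3, named after their values were seen, averaged higher by a wider margin. With AG120 and without it the means were 61.0% and 41.0% in chr6:3201001-3202000, outside genes, and 43.3% and 24.6% in chr5:146261001-146262000 in Cdk8, a kinase of the Mediator complex. In chr16:57391001-57392000, where Cmss1 and Filip1l overlap, they were 66.1% and 37.3%. In edgeR's quasi-likelihood test of the average effect of AG120 these 5 had log2 odds ratios from 0.71 to 1.74 and adjusted p-values of 1.

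Over all 300 members, each counted once, the mean level was 71.5% and 70.7% with AG120+AZA, 69.9% and 73.7% with AG120, 70.7% and 69.7% with AZA, and 71.7% and 72.8% with Vehicle. The AG120 libraries were 1 near the low end and 1 at the high end, and the groups with and without AG120 overlapped. With reads pooled, which weights the deepest tiles most, it was 59.2% and 58.2% with AG120+AZA, 54.5% and 62.2% with AG120, 51.4% and 49.7% with AZA, and 44.8% and 46.8% with Vehicle. All 4 pooled levels with AG120 were above the 4 without it. The mean pooled level with and without AG120 was 47.5% and 33.4% in the chromosome 17 stretch, 63.2% and 63.4% in the chromosome 2 stretch, and 67.5% and 54.8% in the other 290 members. Over all autosomal tiles it was 32.6% and 23.1%. The members were more methylated than the genome at large, with a median of 85.5% against 50.1%, and 175 of them (58.3%) lay over 80%, against 38.0%. That shift came with their few positions: the 271 members with fewer than 20 positions had a median of 86.8%, and all 18497 autosomal tiles with so few had 86.1%. The 29 with more had 44.9%, against 6.51% in all such tiles.

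Some members differed widely between libraries, at a lower share than tiles at large. Between the highest and the lowest library, 47 members (15.7%) spanned more than 50 points, against 20.4% of all autosomal tiles, and 8 (2.67%) had a library under 10% beside a library over 90%, against 5.01%. All 47 had fewer than 20 positions, where the share was 17.3%, against 31.8% of all autosomal tiles with so few. The median SD over 8 libraries was 9.36 points, against 8.48 over all autosomal tiles.

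The widest of those at 20% to 80% was the tile of the Kcnj3 window printed above. Its 3 positions had 9360 reads in all, and its level was 99.8% and 60.7% with AG120+AZA, 0.467% and 47.7% with AG120, 0.0548% and 17.3% with AZA, and 36.1% and 76.7% with Vehicle. Libraries of the same group thus lay far apart in 3 of the 4 groups, and less so with AZA. At position 55435981, a cytosine in that window, the level was 100% and 77.7% with AG120+AZA and 0% in both AG120 libraries. It was 0% and 13.0% with AZA, and 1.77% and 100% with Vehicle. A few bases on, position 55435997 was at 96.7% in AG120 replicate 2. The tile chr13:95231001-95232000 in Pde8b, a phosphodiesterase gene, ran from 0% to 98.7% between the 2 AG120 libraries. The tile chr7:98784001-98785000 had 100% in both AG120+AZA libraries, and 99.7% and 3.12% in the AZA libraries. How many DNA molecules these reads copied is not given by the table.

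The levels of 1 deep tile with few positions lay close together. The tile chr19:13947001-13948000, with 22738 reads per position at 4 positions, had 65.1% and 59.1% with AG120+AZA, 68.2% and 67.1% with AG120, 62.0% and 66.7% with AZA, and 68.9% and 69.5% with Vehicle. It too was a mixture, of 94.0%, 96.6% and 5.71% at its 3 well-read positions. The tile chr12:82741001-82742000 in Rgs6, a regulator of G protein signalling, with 20123 reads per position, was at 76.1% and 69.6% with AG120+AZA, 70.7% and 82.2% with AG120, 79.6% and 91.4% with AZA, and 49.6% and 77.3% with Vehicle. The Sfi1 tile chr11:3193001-3194000, with 45 positions, had 90.7% and 82.6% with AG120+AZA, 83.4% and 90.9% with AG120, 75.7% and 84.2% with AZA, and 81.4% and 80.8% with Vehicle. In none of these 3 tiles did the groups with and without AG120 separate.

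In the comparisons of single groups no member passed an adjusted p of 0.05 by edgeR's quasi-likelihood test, as no tile did (0% of 44190). On the same contrasts and the interaction, limma called 0 members. The likelihood ratio test of edgeR called 1 member for AG120 against Vehicle (all tiles 0.0181%), 0 for AZA against Vehicle (0.0181%), 2 for AG120+AZA against Vehicle (0.217%), 3 for AG120+AZA against AZA (0.726%), 7 for AG120+AZA against AG120 (0.665%) and 4 for the interaction (0.421%). DESeq2 called 10 (all tiles 1.71%), 9 (1.47%), 14 (3.15%), 14 (3.89%), 13 (3.4%) and 16 (2.72%) in the same order of contrasts. At an unadjusted p under 0.05 there were 14 members for AG120 against Vehicle (all tiles 2.84%), 15 for AZA against Vehicle (2.46%), 13 for AG120+AZA against Vehicle (3.95%), 15 for AG120+AZA against AZA (3.86%), 14 for AG120+AZA against AG120 (3.4%) and 14 for the interaction of the drugs (2.7%). As shares of 299 members these counts are 4.68%, 5.02%, 4.35%, 5.02%, 4.68% and 4.68%. Groups of 2 that did not overlap were common at large: AG120 lay above Vehicle in 54 members and below it in 53, against 13.0% and 17.3% of all autosomal tiles. AZA lay above Vehicle in 48 and below in 71, against 12.1% and 18.4%. AG120+AZA lay above Vehicle in 56 and below in 49, against 12.5% and 19.8%.

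The members with the smallest p were of 2 kinds. For AG120 against Vehicle and for AG120+AZA against Vehicle the ribosomal tile chr17:39845001-39846000 was among the first 2, with log2 odds ratios of 1.20 and 1.28. The others were tiles of 3 to 8 positions in which 1 group was fully methylated or fully unmethylated. In chr13:100670001-100671000, in Ccdc125, the level was 31.9% and 25.5% with AG120+AZA, 0% in both AG120 libraries, 14.4% and 12.2% with AZA, and 27.7% and 52.5% with Vehicle, first for AG120 against Vehicle. In chr14:16201001-16202000 it was 0% in both AG120+AZA libraries, 25.0% and 15.9% with AG120, 49.8% and 20.4% with AZA, and 47.2% and 53.9% with Vehicle, second for AG120+AZA against Vehicle.

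For AZA against Vehicle the first tile was chr4:8687001-8688000, with 78.5% and 92.3% with AZA and 100% in both Vehicle libraries. The next was chr3:89473001-89474000, with 79.0% and 77.9% with AZA and 100% in both Vehicle libraries. With AG120+AZA both tiles were at 99.6% or more. For AG120+AZA against AG120 the first was chr19:10188001-10189000 in Fads1, a fatty acid desaturase gene, with 100% in both AG120+AZA libraries against 75.2% and 79.8% with AG120. For AG120+AZA against AZA, after chr14:16201001-16202000, came chr1:121272001-121273000 with 100% in both AG120+AZA libraries against 88.5% and 98.0% with AZA. All these adjusted p-values were 1 in edgeR's quasi-likelihood test, and in such tiles the fitted odds ratio depends on the prior count and is not printed.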

How the data were processed

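Each of the 8 libraries had 1 pair of columns in the deposited table, which per the file headers holds counts of reads calling a CpG cytosine methylated or unmethylated, with the strands apart and the values not normalized. Among the tools in the submitters' processing notes are Bismark 0.22.3, Trim Galore 0.4.4 and edgeR 3.32, with mm10 as the build and no roles given. Whether duplicates or reads with several matches were removed is not given in the sources used here, and either would change the depth of repeated sequence. Of 4006353 positions, 4003423 lay on autosomes and X. The columns of per-sample values left unused numbered 0.

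Counts were summed over tiles of 1000 bp from position 1. Tiles with at least 3 covered positions and 20 reads in every library were kept, and the 300 autosomal tiles with most reads per covered position were taken. A level is the methylated share of the reads of a tile or position in a library. All 44190 autosomal and X tiles with both kinds of read were fitted in edgeR 4.0.16 (R 4.3.3), with 1 coverage term for each library and 1 methylation term for each group. The two-sided quasi-likelihood F-test (robust) was applied, with Benjamini-Hochberg adjustment over all tiles and a threshold of 0.05. The test was also run on simulated data with planted drops in the groups with AZA and a set spread between libraries. The outcome is not given here, and such a run does not show the power of the test on these data. Alternatives were edgeR's likelihood ratio test, limma 3.58.1 on log2 ratios, DESeq2 1.42.0, a replicate block, other filters and tile starts, and leaving out each library.

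Tiles were named by rule: the 10 deepest, the 2 with the smallest p in each pairwise comparison, the 3 widest and 3 narrowest in range at 20% to 80%, the 5 longest runs, those at the edge of the list and those in the gene lists (ribosomal and small RNA, satellite-associated, duplicated and tandem, imprinted). Exceptions are marked. The members, lists and rules were chosen with earlier results of these data known. Promoter windows came from RefSeq (GRCm38.p6). Genome sequence and repeat annotation were not used here.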

Additional observations from a re-analysis of the deposited data

Results flagged for a closer look

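In 5 of the named tiles the libraries moved one way with a drug alone and the opposite way when the other drug was also given, in every library. In the Ccdc125 tile chr13:100670001-100671000 the AG120 effect was 15.4 points beside AZA and -40.1 points without it, a difference of 55.5 points, and the AZA effect was 28.7 points beside AG120 and -26.8 points without it, with the same difference of 55.5 points. In the Kcnj3 tile chr2:55435001-55436000 the AZA effect was 56.2 points beside AG120 and -47.7 points without it, a difference of 104 points (103.9), the largest of the 5. In chr3:89473001-89474000 the AG120 effect was 21.3 points beside AZA and -5.27 points without it, a difference of 26.5 points. In chr1:121272001-121273000 it was 6.77 and -8.21 points, a difference of 15.0 points. In chr4:8687001-8688000 both drugs' effects differed by 15.5 points, but the opposite move was small. There the AG120 effect was 14.6 points beside AZA and -0.916 points without it. The AZA effect was 0.916 points beside AG120 and -14.6 points without it.

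The interaction of the drugs, tested with edgeR's quasi-likelihood test over all tiles, gave an adjusted p of 1 in each of these 5 tiles. All 5 have 3 to 8 covered positions, and 4 of them were named for small p-values in pairwise comparisons, which favours such tiles. Over all 300 members such opposite moves occurred for AG120 in 22 (7.33%), against 4.2% of all 43285 autosomal tiles, and for AZA in 21 (7.0%), against 4.51%. These shares were not tested against each other. With 2 libraries a group, no library could be tested for standing apart from its group.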

How the results depend on the processing

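Whether members were called depended on the test. The quasi-likelihood test called 0 members in each of the 8 contrasts, as did limma, the replicate block, both other filters, tiles with shifted starts and leaving out any 1 library (0 to 0). The likelihood ratio test called 1 for AG120 against Vehicle, 2 for AG120+AZA against Vehicle, 3 for AG120+AZA against AZA, 7 for AG120+AZA against AG120, 1 and 4 for the average effects of AG120 and AZA, and 4 for the interaction. DESeq2 with size factors of 1 called 10 for AG120 against Vehicle, 9 for AZA against Vehicle, 14 for AG120+AZA against Vehicle, 14 for AG120+AZA against AZA, 13 for AG120+AZA against AG120, 19 and 11 for the average effects of AG120 and AZA, and 16 for the interaction. With its own size factors it called 10, 9, 15, 13, 13, 19, 11 and 16 in the same order. Over all tiles these tests called 8 to 410, 650 to 1721 and 618 to 1719. Of 239 alternative values for 16 named tile contrasts, 204 kept direction and side of the threshold, 35 passed it and 0 reversed. These contrasts were picked for the smallest p-values in the same data or as the ribosomal tiles. In most of the former a group was fully methylated or fully unmethylated, so the lack of reversals is no test of stability. For chr17:39845001-39846000 the average effect of AG120 had an adjusted p of 1 by the quasi-likelihood test, 0.934 by the likelihood ratio test, 0.951 by limma and 0.000151 or 0.000271 by DESeq2.

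Libraries of the same replicate number shared no clear deviation from their group means, with correlations from -0.00346 to 0.0199. Whether such libraries were handled together cannot be told from this. The replicate block left the count of called members at 0.

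With each read counted once, the difference in mean level over the members was 12.5 points for AG120 against Vehicle (main -0.431), 4.74 for AZA against Vehicle (-2.05), 12.9 for AG120+AZA against Vehicle (-1.16) and 8.13 for AG120+AZA against AZA (0.883). With the 100 deepest tiles it was 0.236 for AG120 against Vehicle, 0.474 for AG120+AZA against AG120 (main -0.732), 0.709 for AG120+AZA against Vehicle and 2.80 for AG120+AZA against AZA. Without 1 library it ran from -2.30 to 1.44 for AG120 against Vehicle, and from -2.60 to 1.14 for AG120+AZA against AG120. Its sign turned for AG120 against Vehicle without Vehicle replicate 2 or AG120 replicate 1, with the median over members and with shifted starts, and for AG120+AZA against AG120 without AG120 replicate 2, with positions or reads counted once. The ribosomal difference between libraries with and without AG120 stayed between 9.28 and 14.9 points under all alternatives run.

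The share of calls, in the order AG120+AZA, AG120, AZA and Vehicle, was 5.60%, 4.97%, 4.87% and 4.51% with the 100 deepest tiles, 6.88%, 6.16%, 5.96% and 5.50% with the 1000 deepest, and 9.17%, 8.01%, 7.34% and 6.43% of calls in tiles passing the filter. It was 1.05%, 1.07%, 1.05% and 1.05% without the chromosome 17 and 2 stretches, an alternative chosen after seeing the data, and 5.29% for AG120 with members chosen without its libraries. Ranking by the deepest position kept 125 members and asking for 5 positions 172.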

Other observations

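The members were spread unevenly over the chromosomes, from 0.302% of the tiles of chromosome 15 to 1.17% of those of chromosome 14. On chromosome 17, 23 of 2048 tiles were members, 6 of them in the ribosomal stretch. These shares are a description, since depth chose the tiles. In the 2 smaller tiles of the chromosome 2 stretch the single positions were less even over the libraries than the most read positions of the 2 deep ones. Less read positions of a deep tile were uneven too. Position 98662265, with 0.524% of its tile's reads, ran from 51.6% in AZA replicate 1 to 96.7% in AG120+AZA replicate 2. In a smaller tile, position 98667107 was at 13.5% and 79.4% with AG120+AZA, 81.0% and 76.6% with AG120, 85.6% and 83.6% with AZA, and 87.8% and 83.0% with Vehicle, so that 1 AG120+AZA library alone was low.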
